A study of Mus musculus with 4 samples.

Results

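The machinery that copies DNA was followed here as a set of 44 genes of DNA replication and S phase, in cultured bone-forming cells of mice labelled Runx3f/f/Col1a1-cre and of wild type. The genes were listed by function, with earlier results of these arrays already known, and each was read on the row of the deposited value table that carries its symbol alone, taking the brightest such row. Of the 44 genes, 42 had such a row among the 22180 genes so named, and all 42 passed the filter on dim signals among 17823 tested genes. The clamp loader gene Rfc4 and the cyclin gene Ccne2 had no row of their own symbol and are not analysed one by one.

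Before a cell divides, the origin recognition complex marks start sites on DNA, Cdc6 and Cdt1 load the ring-shaped MCM helicase there, and GINS and Cdc45 turn that ring into an active helicase. Primase and polymerases then make the new strands, held to DNA by the clamp PCNA, while other enzymes supply nucleotides and rebuild chromatin behind the fork. Many of these genes are transcribed together at the entry to S phase under E2F factors, and osteoblast precursors in culture are known to divide less as they mature.

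Osteoblast progenitors from the skull vault (calvaria) of newborn mice were grown for 21 days in osteogenic medium with ascorbate and glycerol phosphate, and total RNA was hybridised to Affymetrix Mouse Gene 2.0 ST arrays. There were 4 arrays, biological replicates 1 and 2 of Runx3f/f/Col1a1-cre and biological replicates 1 and 2 of wild type. In the mutant, floxed Runx3, a Runt-family transcription factor, is meant to be deleted by a Cre recombinase under the promoter of type I collagen, so cells in the dish that do not make this collagen would keep the gene. The labels do not say whether wild-type cultures carried the floxed allele or Cre, nor how many pups gave each culture, the strain, or what replicate numbers share.

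The arrays set limits that touch every value below. Values were taken as log2, running from 2.26 to 14.1, and the tested genes had a median of 7.53 in replicate 1 and 7.81 in replicate 2, alike in mutant-labelled and wild type. Runx3 read 7.94 and 8.06 on the mutant arrays against 7.45 and 7.87 in wild type, so its probe set does not show the deletion, and the arrays are called mutant-labelled. A tissue tag reads myoblast, while the cell type tag reads osteoblast. Col1a1, the main collagen of bone, read 13.45 to 13.57 on the 4 arrays. Of the muscle markers, the filament gene Des read 7.59 to 8.24, the actin Acta1 7.02 to 8.06 and the myogenin gene Myog 5.95 to 6.72. Levels of different probe sets are not comparable, so these values do not settle the tag. In 35.8% of tested genes the mutant-labelled and wild-type arrays of replicate 1 hold exactly equal values, with no tolerance, and in 50.2% those of replicate 2 do. No source says how this came about, and an equal value below is not evidence that a gene did not differ.

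Replication genes read lower on the mutant-labelled arrays by a modest amount, and most did so in both replicates. Of the 42 genes, 33 (78.6%) were lower within replicate 1 and within replicate 2, where 19.5% of all tested genes were. The reverse held for 1 gene, E2f1, against a background of 16.8%. A further 6 genes were equal in one replicate, Rfc1 was equal in both, and Gins3 had opposite signs. The median log2 difference over the 42 genes was -0.30, or 81.4% of the wild-type level, and it was 0 over all tested genes. Within replicates the medians were -0.29 and -0.28. The single differences ran from -0.66 for Mcm6 to 0.07 for E2f1. Since bulk RNA was measured, fewer dividing cells and less RNA per dividing cell cannot be told apart.

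No single gene passed a test corrected for all genes. With limma, 0 of the 42 genes and 0 of all 17823 tested genes (0%) passed an adjusted p of 0.05, and the smallest adjusted p among the 42 was 0.714, for Mcm6. At an unadjusted limma p under 0.05 there were 11 lower genes (26.2%) and 0 higher, against 1.9% and 2.06% of all tested genes. Leaving out any one of the 4 arrays leaves 1 array in a group, so only differences are given for those fits. Doing so also shifts all genes, so both medians are given. Without mutant-labelled replicate 1 the median of the 42 genes was -0.20 and that of all tested genes 0.15, and without wild-type replicate 2 they were -0.25 and 0.15. Without wild-type replicate 1 they were -0.34 and -0.16, and without mutant-labelled replicate 2 -0.36 and -0.16. As the median of the 42 genes minus that of all genes, these give -0.40 to -0.18, nearest to 0 without wild-type replicate 1. Adding a replicate block to the fit, 18 genes were lower at that p, against 6.74% of all tested genes, and 0 were higher, against 6.26%, while the adjusted count stayed at 0 (0%).

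Groups that do not overlap give another view of the same arrays. In 26 of the 42 genes (61.9%) both mutant-labelled arrays lay below both wild-type arrays, against 9.26% of all tested genes. In 1 gene, E2f1, both lay above, against 7.66%. At least a 1.2-fold lower level within both replicates was seen in 19 of the 42 genes, against 3.76% of tested genes, and in 0 was the level that much higher in both, against 4.51%. Exactly equal values were held by 2 of the 42 genes in replicate 1, against 35.8% of tested genes, and by 6 in replicate 2, against 50.2%, so the counts were also taken over genes with unequal values in both replicates. There, 33 of 35 replication genes were lower in both, and 49.1% of 7069 tested genes were. Both mutant-labelled arrays lay below both wild-type arrays in 74.3% of the 35, against 23.3%. At least 1.2-fold lower in both replicates were 54.3%, against 9.48%. At an unadjusted limma p under 0.05, 31.4% were lower, against 4.8%.

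**Figure D1:**
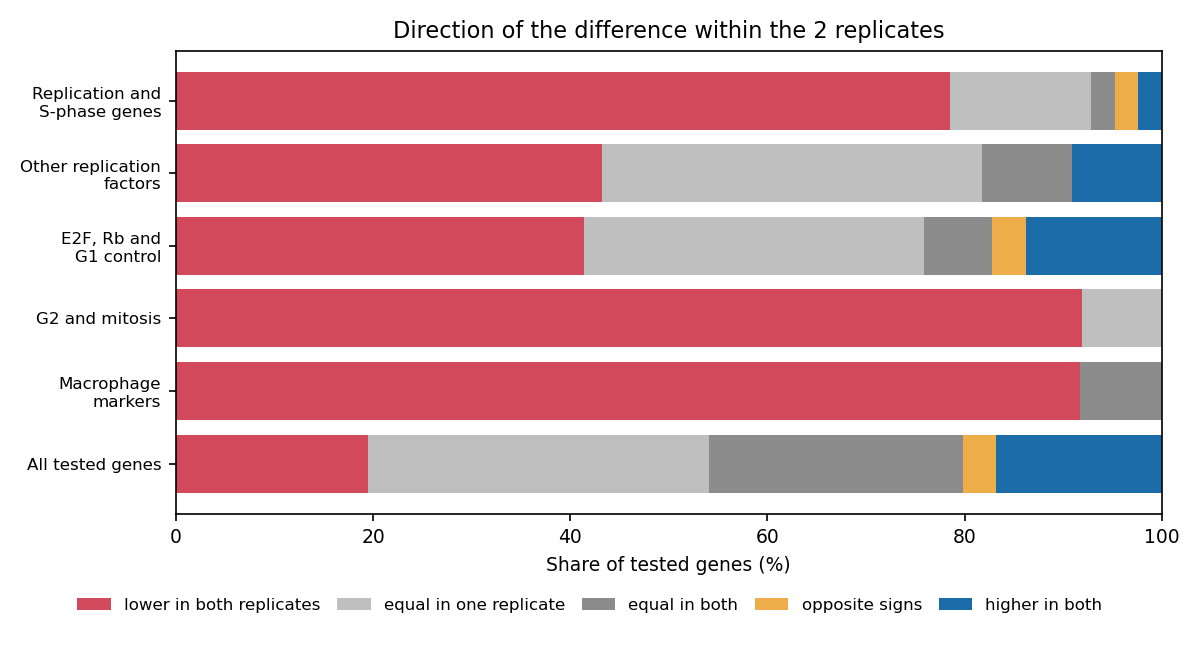
Stacked bars show, for each gene list, the share of its tested genes in percent that was lower in both replicates, equal in one, equal in both, opposite in sign, or higher in both. The red share is 78.6% for the 42 replication and S-phase genes and 19.5% for all tested genes.

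The MCM helicase genes were all lower. The 6 subunits form the ring that unwinds DNA ahead of the fork, and in all 6 genes both mutant-labelled arrays lay below both wild-type arrays. Mcm6 read 8.18 and 8.33 on the mutant-labelled arrays of replicates 1 and 2, and 8.86 and 8.96 on the wild-type arrays. The lowest wild-type value stood 0.53 above the highest mutant-labelled one, and the mean difference was -0.66 (SE 0.13, limma adjusted p = 0.714), a level 1.58-fold lower.

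Mcm3 followed closely, with 8.02 and 8.26 on the mutant-labelled arrays and 8.69 and 8.85 in wild type, a difference of -0.63 (SE 0.16). Mcm2 read 9.03 and 8.90 against 9.57 and 9.31, a difference of -0.47 (SE 0.16). Neither pair of groups overlapped, and both genes were lower within each replicate. Mcm5 read 9.17 and 9.28 against 9.56 and 9.70, a difference of -0.40. Mcm7 read 8.88 and 9.03 against 9.33 and 9.38, also -0.40. Mcm4 had the smallest difference of the ring, -0.26, with 10.12 and 10.11 against 10.39 and 10.36. Its arrays were also the closest within each group. Only Mcm3 and Mcm6, among all 42 genes, were more than 1.5-fold lower within both replicates, where 1.16% of tested genes were.

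The promoters of these genes are shown because S-phase genes are known as targets of E2F factors and because the MCM genes read lower together. RefSeq sequences of GRCm38.p6, from 250 bases before to 50 after a gene's start, were found for 37 of the 44 genes, some with more than 1 start. An E2F-type site was searched as TTTGGCGC, TTTCCCGC, TTTCGCGC or TTTGCCGC on both strands, and matches may overlap each other. Such a match stood in 14 of the 37 genes (37.8%), against 2.61% of all 27025 genes with a promoter in the table. Counted by promoter, 14 of 42 held a match (33.3%), against 2.26% of 32851 promoters of the same length. A match is a description of letters and not a bound site.

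The bases before the start of 4 genes with a match and of 2 without are given 5′ to 3′ along the gene's own strand, with matches in capitals. Mcm6, Mcm5, Mcm7 and Rfc3 read lower in both replicates, while Pcna and Rfc1 did not. These genes were picked for display, so they do not show how often a match and a lower level go together. Of the 22 tested genes with a promoter but no match, 16 were also lower in both.
Mcm6, chr1:128359706-128359955, minus strand: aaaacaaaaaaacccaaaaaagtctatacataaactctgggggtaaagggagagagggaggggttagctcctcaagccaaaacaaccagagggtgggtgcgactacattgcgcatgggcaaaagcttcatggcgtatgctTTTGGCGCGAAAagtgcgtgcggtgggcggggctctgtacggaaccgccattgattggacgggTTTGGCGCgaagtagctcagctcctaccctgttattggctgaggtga
Mcm5, chr8:75109259-75109508, plus strand: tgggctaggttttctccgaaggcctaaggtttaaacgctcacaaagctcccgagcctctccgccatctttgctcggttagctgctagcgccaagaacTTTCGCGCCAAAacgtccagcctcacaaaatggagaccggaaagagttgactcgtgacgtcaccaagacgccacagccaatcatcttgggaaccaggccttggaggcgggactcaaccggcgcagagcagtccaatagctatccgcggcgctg
Mcm7, chr5:138171884-138172133, minus strand: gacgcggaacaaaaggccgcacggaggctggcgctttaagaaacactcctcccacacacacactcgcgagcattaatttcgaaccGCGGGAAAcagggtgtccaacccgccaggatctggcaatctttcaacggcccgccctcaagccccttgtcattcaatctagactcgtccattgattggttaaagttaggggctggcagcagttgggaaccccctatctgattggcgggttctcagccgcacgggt
Rfc3, chr5:151651209-151651458, minus strand: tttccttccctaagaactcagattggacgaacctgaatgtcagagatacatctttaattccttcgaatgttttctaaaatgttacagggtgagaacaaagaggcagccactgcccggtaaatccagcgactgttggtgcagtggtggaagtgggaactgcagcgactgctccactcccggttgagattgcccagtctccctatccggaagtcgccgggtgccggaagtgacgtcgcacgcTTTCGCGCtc
Pcna, chr2:132253181-132253430, minus strand: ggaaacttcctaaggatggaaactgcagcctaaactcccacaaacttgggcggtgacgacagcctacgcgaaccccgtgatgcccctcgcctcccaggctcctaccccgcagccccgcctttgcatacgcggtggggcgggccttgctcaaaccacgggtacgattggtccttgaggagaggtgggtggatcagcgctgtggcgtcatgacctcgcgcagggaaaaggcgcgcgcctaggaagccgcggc
Rfc1, chr5:65335640-65335889, minus strand: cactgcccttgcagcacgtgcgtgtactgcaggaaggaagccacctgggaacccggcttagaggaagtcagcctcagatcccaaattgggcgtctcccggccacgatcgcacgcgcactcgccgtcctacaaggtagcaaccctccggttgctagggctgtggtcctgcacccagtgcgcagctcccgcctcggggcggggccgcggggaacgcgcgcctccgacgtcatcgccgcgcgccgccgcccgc

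Mcm6 held 3 matches, beginning at -110, -106 and -47 from the start, and the first and second overlap on opposite strands to make a single block. Mcm5 held 2 overlapping matches at -153 and -149. Mcm7 held a match at -165 in 1 of its 2 listed promoters and another at 17, downstream of the start. Both matches of Mcm3 also lay downstream of the start, at 20 and 39. Mcm2 had none in its window, and its mean difference of -0.47 was larger than that of Mcm5.

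Genes with and without a match overlapped in how far they read below wild type, and the difference between them was not tested. The 14 genes with a match had a median difference of -0.37, from -0.66 to -0.02, and 11 were lower in both replicates. The 22 tested genes with a promoter but no match had a median of -0.26, from -0.62 to 0.07, and 16 were lower in both. Gins3, Orc1 and Pold1 hold a match and differed by -0.02, -0.07 and -0.03, whereas Chaf1b and E2f8 have none and differed by -0.62 and -0.56. Over all tested genes with a listed promoter, the 533 with a match had a median of 0 and 25.7% were lower in both replicates, and the 13260 without had a median of 0 and 19.4%.

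**Figure D2:**
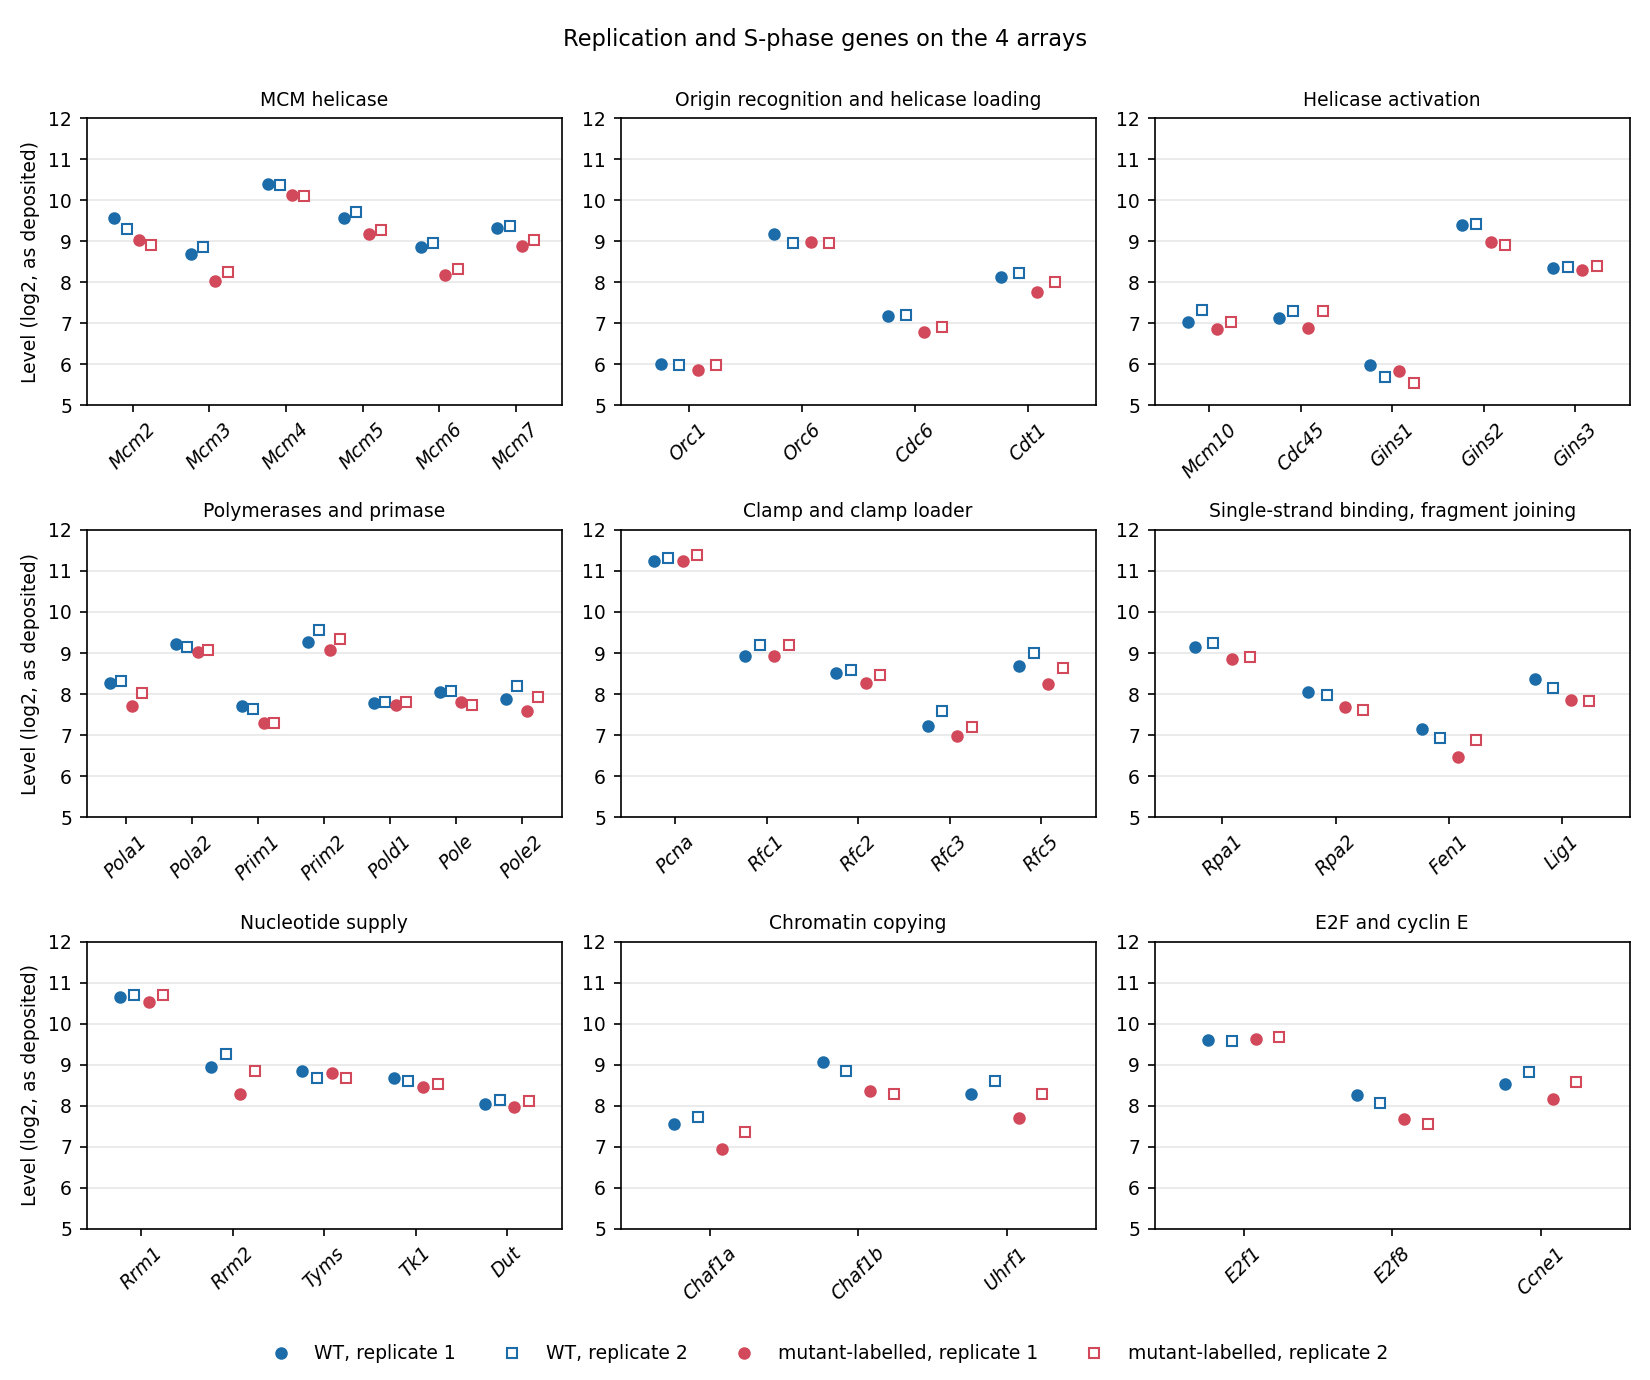
Each panel shows the genes of 1 role, with the deposited log2 level on the vertical axis, wild-type arrays in blue, mutant-labelled arrays in red, filled circles for replicate 1 and open squares for replicate 2. All 6 MCM genes have both red points below both blue points, while the 4 points of Pcna stay between 11.23 and 11.40.

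Among the genes that place the helicase on DNA, the 2 loaders were lower in both replicates. Cdc6 read 6.80 and 6.91 on the mutant-labelled arrays against 7.18 and 7.21 in wild type, a difference of -0.34 (SE 0.12). Cdt1 read 7.77 and 7.999 against 8.13 and 8.23, a difference of -0.29 (SE 0.15). The groups did not overlap for either loader. Orc1, the largest subunit of the origin complex, read 5.86 and 5.99 against 6.01 and 5.99, and Orc6 read 8.99 and 8.96 against 9.16 and 8.96. Both origin genes were lower in replicate 1 alone and exactly equal in replicate 2.

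Genes that switch the loaded ring on were mixed. Gins2, a subunit of the GINS complex, read 8.98 and 8.91 against 9.40 and 9.42, with no overlap and a difference of -0.47 (SE 0.12, limma adjusted p = 0.911). Its partner Gins1 differed by -0.15, at 5.83 and 5.54 against 5.99 and 5.69, and Gins3 by -0.02, at 8.29 and 8.40 against 8.36 and 8.37. Subunits of the same complex thus stood at unlike differences, and the difference between genes was not tested. Cdc45, which joins GINS on the ring, was at -0.24 in replicate 1 and -0.005 in replicate 2. Mcm10, which helps start the helicase, was lower in both replicates, at -0.17 and -0.28, with overlapping groups.

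Primase and polymerase alpha, which lay down the first stretch of each new strand, were lower in both replicates in all 4 genes. Prim1, the catalytic primase subunit, read 7.29 and 7.30 against 7.71 and 7.64, a difference of -0.38 (SE 0.12). Pola1, the catalytic subunit of polymerase alpha, read 7.70 and 8.03 against 8.27 and 8.33, a difference of -0.43 (SE 0.17), wider in replicate 1 (-0.57) than in replicate 2 (-0.30). Of their partner subunits, Prim2 was at -0.20 with overlapping groups and Pola2 at -0.14 with none.

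The polymerases that extend the strands read unlike, in part through an equal value, and the difference between genes was not tested. Pole, the catalytic subunit of the leading-strand polymerase epsilon, read 7.80 and 7.74 against 8.05 and 8.07, a difference of -0.29 (SE 0.12). Pole2, its second subunit, differed by -0.28 but with overlapping groups, because the replicates lay 0.33 and 0.32 apart. Pold1, the catalytic subunit of the lagging-strand polymerase delta, read 7.72 and 7.81 against 7.79 and 7.81 and was equal in replicate 2.

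The clamp gene did not read lower, but equal values in this group do not show that a gene was unchanged. Pcna read 11.23 and 11.40 on the mutant-labelled arrays against 11.23 and 11.33 in wild type, equal in replicate 1 and 0.07 higher in replicate 2. Rfc1, the large subunit of the complex that loads the clamp, held equal values in both replicates, 8.92 and 9.198. The small subunits, which also serve in other clamp loaders, were lower in both replicates. Rfc5 read 8.25 and 8.63 against 8.68 and 9.003, a difference of -0.40 (SE 0.22). Rfc3 was at -0.33 and Rfc2 at -0.19, and the groups of all 3 were apart by 0.06 or less.

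All 4 genes of single-strand binding and fragment joining were lower without overlap. Rpa1, which coats exposed single strands, read 8.85 and 8.91 against 9.14 and 9.25, a difference of -0.31 (SE 0.12). Rpa2, its partner, read 7.68 and 7.61 against 8.04 and 7.98, a difference of -0.37 (SE 0.12). Both were about as far apart in one replicate as in the other. Lig1, the ligase that seals lagging-strand fragments, read 7.85 and 7.84 against 8.37 and 8.15, a difference of -0.42 (SE 0.14). Fen1, which trims the flaps of those fragments, was the least even gene of the set, at -0.68 in replicate 1 and -0.05 in replicate 2.

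Genes of nucleotide supply read unlike, in part through equal values, which do not show that a gene was unchanged. Rrm2, the S-phase subunit of ribonucleotide reductase, read 8.28 and 8.85 against 8.95 and 9.26, a difference of -0.54 (SE 0.27), with a gap of 0.10 between the groups. Rrm1, the other subunit of the same enzyme, read 10.52 and 10.71 against 10.66 and 10.71, a difference of -0.07 with equal values in replicate 2. Thymidine kinase Tk1, of the salvage route, was at -0.23 and -0.06 within the replicates. Tyms, which makes thymidylate anew, was at -0.04 in replicate 1 and equal in replicate 2. Dut, which removes dUTP, was at -0.08 and -0.02.

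Genes that rebuild chromatin on copied DNA were lower in both replicates in all 3. Chaf1b, a subunit of chromatin assembly factor 1, read 8.37 and 8.30 against 9.06 and 8.85, a difference of -0.62 (SE 0.14, limma adjusted p = 0.831) and a level 1.53-fold lower. Chaf1a, another subunit, read 6.94 and 7.37 against 7.56 and 7.72, a difference of -0.49 (SE 0.21). The groups were apart for both. Uhrf1, which brings DNA methylation to new strands, read 7.72 and 8.29 against 8.30 and 8.61, a difference of -0.45 (SE 0.27), and its groups all but touched.

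The regulators differed in direction. E2f8, an atypical E2F that represses E2F targets, read 7.67 and 7.56 against 8.28 and 8.07, a difference of -0.56 (SE 0.14, limma adjusted p = 0.934). E2f1, an activating E2F, read 9.63 and 9.69 against 9.59 and 9.59, a difference of 0.07 (SE 0.12). It alone of the 42 had both mutant-labelled arrays above wild type, by a margin smaller than its SE. Ccne1, the cyclin that drives entry into S phase, was at -0.37 and -0.23 within the replicates, with overlapping groups.

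**Figure D3:**
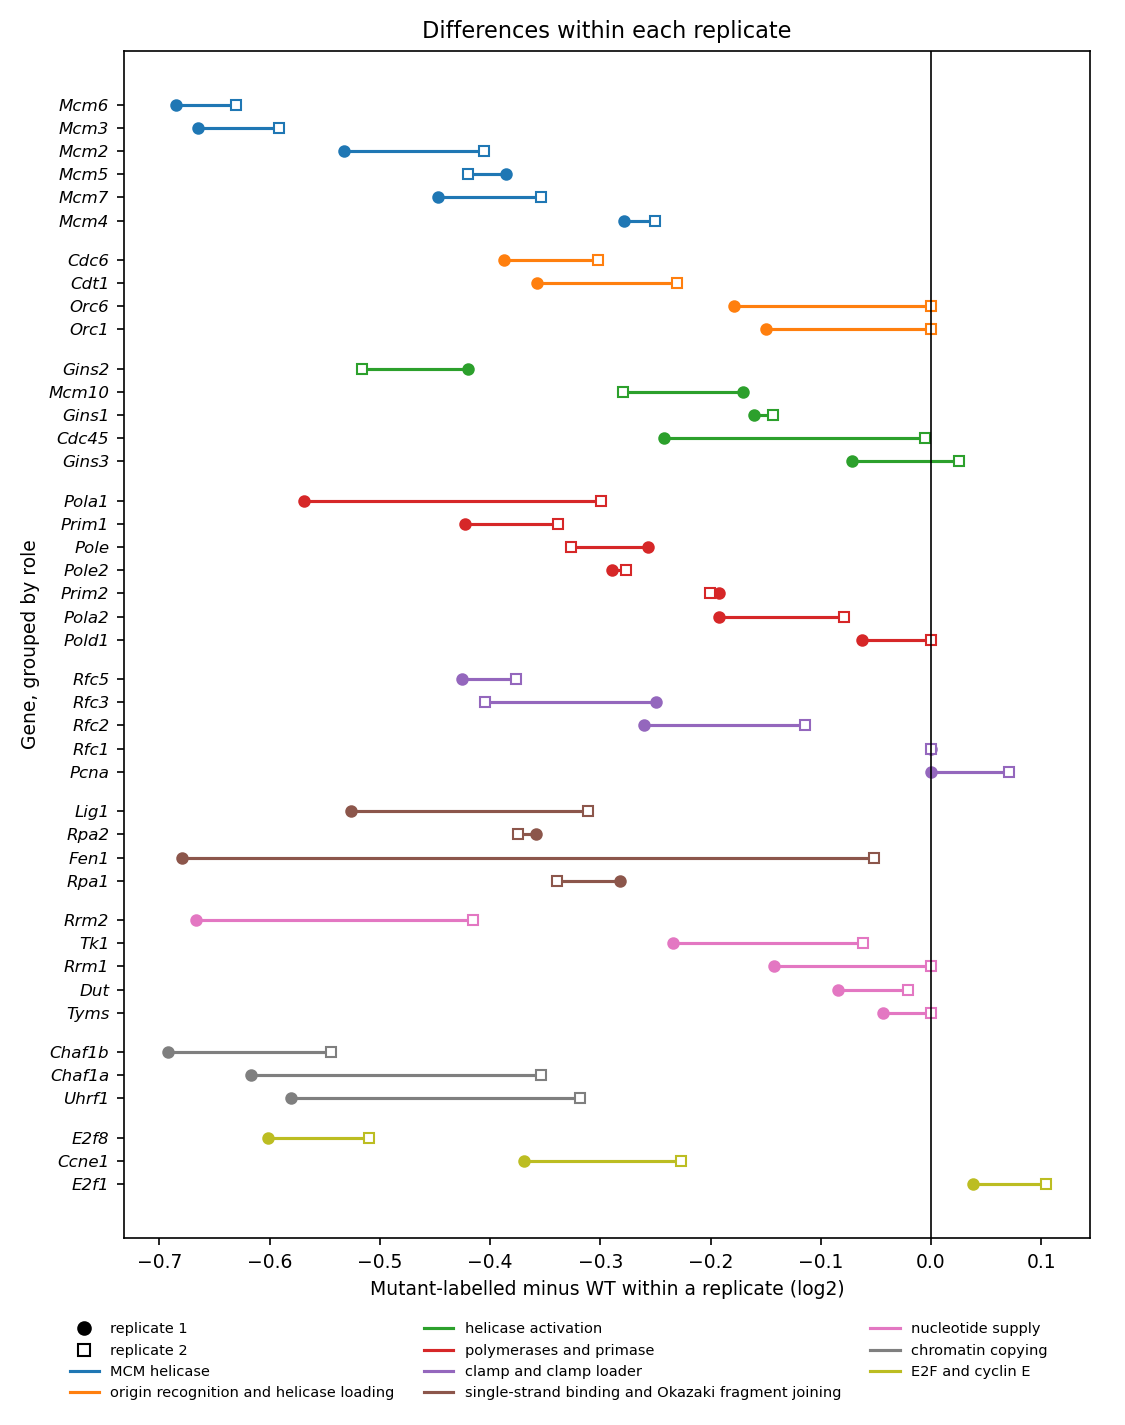
For each gene, grouped by role, the difference of mutant-labelled minus wild type in log2 is drawn for replicate 1 (filled circle) and replicate 2 (open square), joined by a line. Mcm6 lies at -0.68 and -0.63, Fen1 spans -0.68 to -0.05, and E2f1 is the gene with both points above 0.

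Replicate 1 gave the wider differences more often. Among the 33 genes lower in both, 25 were further below wild type in replicate 1 and 8 in replicate 2. Across the 42 genes the differences of the replicates went together (Pearson r = 0.79, Spearman rho 0.82), and r was 0.71 over the 35 genes without an equal value. These are correlations across genes, which are not independent, on 2 pairs of arrays. The median gap between the replicates' differences was 0.09.

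**Figure D4:**
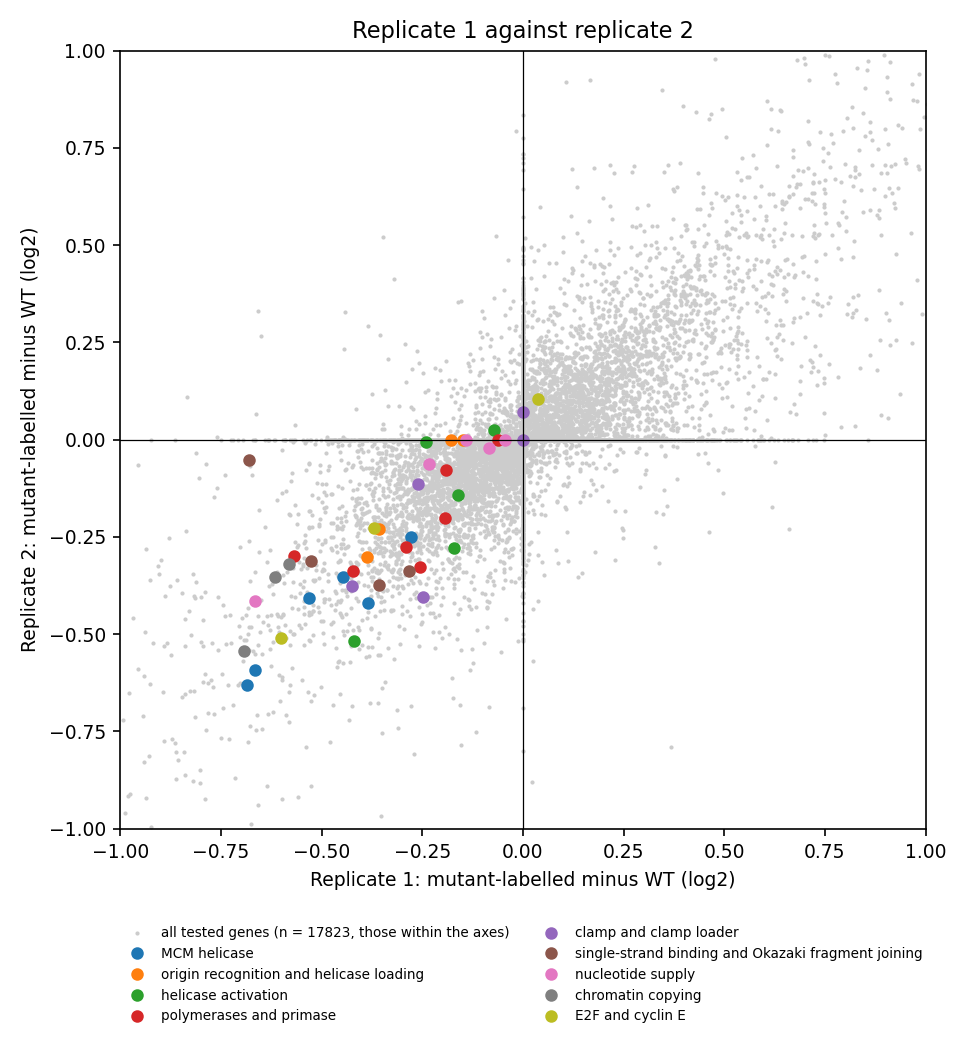
Each point is a gene, with the log2 difference of mutant-labelled minus wild type in replicate 1 on the horizontal and in replicate 2 on the vertical axis, replication genes in colour by role and all tested genes within the axes in grey. Of the 42 coloured points 33 lie in the lower left quadrant, and points on an axis line are genes with equal values in a replicate.

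Other genes of the cell cycle place these values. Of 48 further replication factors 44 were tested, with a median of -0.07. Lower in both replicates were 19 of them (43.2%) and higher 4 (9.09%), against 19.5% and 16.8% of all tested genes. Those of smallest p were Asf1b, a histone chaperone, at -0.54, the fork factor Wdhd1 at -0.44, Dbf4, which activates the kinase that fires origins, at -0.33, and the initiation factor Topbp1 at -0.31. Among the 44, groups did not overlap in 13 genes (29.5%) with mutant-labelled below and in 1 (2.27%) above, against 9.26% and 7.66% of all tested genes. Of 29 genes of E2F, Rb and G1 control, 12 (41.4%) were lower and 4 (13.8%) higher in both, against the same 19.5% and 16.8%. Their median was -0.09, and they were led by the cyclin Ccnd1 at -0.31, Mybl2 at -0.26, Rbl1 at -0.25 and the E2F partner Tfdp1 at -0.25.

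Genes of G2 and mitosis were also mostly lower. Of 37 tested, 34 (91.9%) were lower and 0 higher in both replicates, against 19.5% and 16.8% of all tested genes, with a median of -0.29. Groups were apart in 26 (70.3%), all with the mutant-labelled arrays below, against 9.26% of all tested genes. Kif2c, a mitotic kinesin, was at -0.56, the checkpoint kinase Bub1 at -0.51, the kinetochore gene Nuf2 at -0.48 and Anln, of the dividing furrow, at -0.47. In these 3 lists 0 genes passed limma's adjusted threshold. At an unadjusted limma p under 0.05, 2, 0 and 5 genes (4.55%, 0% and 13.5%), in the order given, were lower, against 1.9% of all tested genes.

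**Figure D5:**
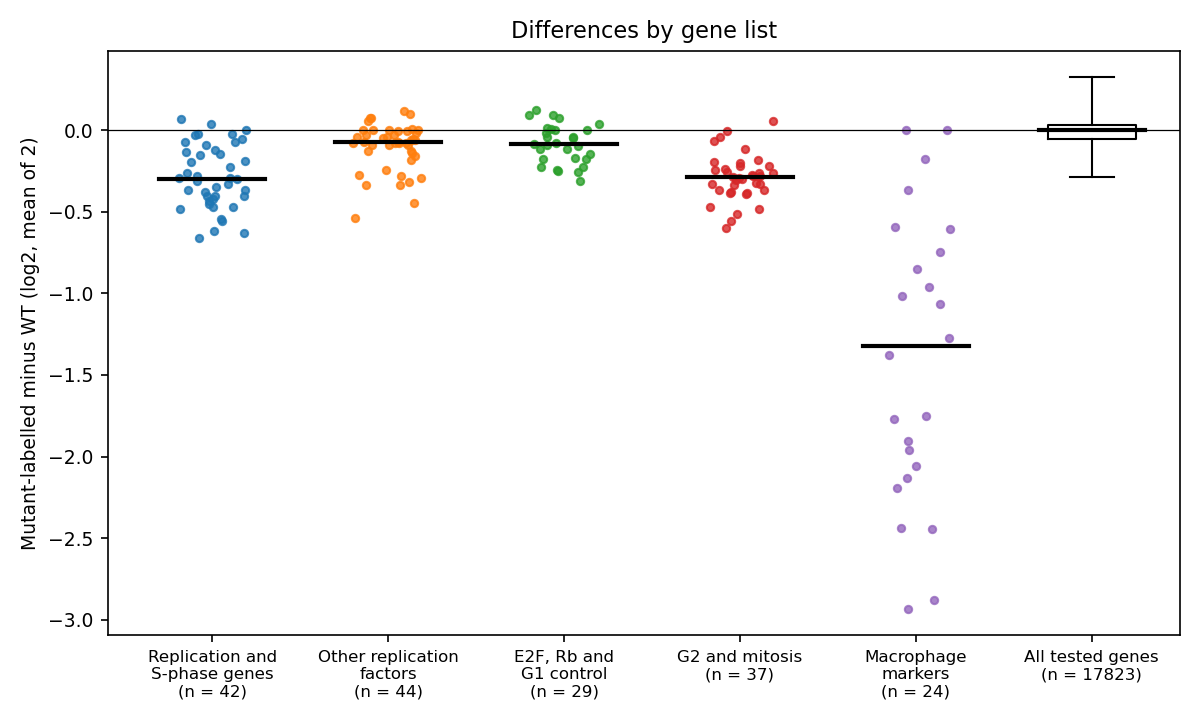
Points are single genes and thick bars medians of the log2 difference of mutant-labelled minus wild type, averaged over 2 replicates, by gene list; for all tested genes the box spans the quartiles and the whiskers the 5th to 95th percentile. Medians are -0.30 for the 42 replication genes, -0.07 and -0.09 for the next lists, -0.29 for G2 and mitosis and -1.32 for macrophage markers.

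Markers of other cells and of sex also differed on these arrays. Over all tested genes, 19.5% were lower and 16.8% higher in both replicates. Of 24 tested macrophage markers 22 were lower in both replicates, and their summed level on the linear scale was 3500 and 4066 on the mutant-labelled arrays against 11326 and 12683 in wild type. Lyz2, the lysozyme of myeloid cells, was at -1.77, its close paralog Lyz1 at -2.44 and the lysosomal marker Cd68 at -0.75, whereas Aif1 and Cx3cr1, named after their values were seen, were equal in both replicates. Of 8 endothelial markers 3 were higher and 0 lower in both, among them Cdh5 at 1.49. The Y-linked genes Eif2s3y and Uty were higher, at 2.28 and 2.17, and Xist was lower, at -1.35. These genes mark male or female cells. A difference in sex make-up between the cultures would run along with the label, so it cannot be told apart from genotype. Of 13 osteoblast markers 7 were lower and 2 higher in both. Their differences ran from -1.55 to 0.27, with a median of -0.24. Their summed level was 35957 and 40713 against 42319 and 47576, a sum in which the brightest genes weigh most. Of 9 myoblast markers 1 was lower and 1 higher in both, of 7 cartilage markers 5 were lower and 0 higher, and the median of 4 fat-cell markers was -0.30. The part of these markers in the values of the replication genes was not tested and cannot be told apart from genotype in this design.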

How the data were processed

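The authors deposited 1 table of log2 values for 4 arrays; per the submitters' processing notes Partek and RMA were used, in versions and order not given in the sources used here. The log base and which arrays were normalized together are not given either, so log2 is inferred from the range of the deposited values. Of 41345 rows, 23521 carry 1 gene symbol, 1814 several and 16010 none, by the platform annotation.

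The filter kept 17823 of 22180 genes, those with 2 or more arrays over a floor of 4.72. That floor is the percentile 90 of row means among 1400 rows for smell and pheromone receptors. Groups were compared with limma 3.58.1 in R 4.3.3 (lmFit with a group term alone, then eBayes; two-sided tests, Benjamini-Hochberg adjustment over all tested genes, threshold 0.05), and the fit was tested on simulated data. A p-value weighs a difference against the spread between 2 arrays per group, which eBayes draws towards the spread of all tested genes. The SEs printed are drawn in the same way. For Mcm4 the SE was 0.12, where the SDs within the groups were 0.002 and 0.02. Differences within a replicate number, counts and medians are descriptions with no test. Precision is limited by the number of arrays.

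All 44 members are named. From other pathway lists the 4 genes of smallest p are named, and from marker lists genes among the 3 of highest mean level. The members and lists were chosen with earlier results of these data known. Promoter sequences are RefSeq's, of GRCm38.p6, in windows of 300 bases searched with Python 3.11.15. Alternatives were other filters, normalizations, choices of rows, variance models, a replicate block and each array left out.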

Additional observations from a re-analysis of the deposited data

How the results depend on the processing

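With 2 arrays per group and 2 residual degrees of freedom, the number of arrays limits every call. Under 12 other ways of processing and 2 more chosen after seeing the data, 0 of the replication genes passed limma's adjusted threshold except with the replicate block together with a further quantile normalization, chosen after seeing the data. There 6 passed, out of 399 genes in all: Mcm3 (-0.64, adjusted p = 0.0386), Mcm6 (-0.67, 0.0386), E2f8 (-0.59, 0.0395), Rfc5 (-0.42, 0.0479), Chaf1b (-0.64, 0.0491) and Prim1 (-0.42, 0.0491). An intensity trend called 49 genes and 0 of the 42. With the replicate block alone 0 genes passed, the smallest adjusted p of the 42 was 0.172, and 18 of them were lower at an unadjusted p under 0.05, against 6.74% of all tested genes. In this balanced design a block or an intensity trend cannot change a difference. With both, the median therefore stayed at -0.30, which says nothing on robustness. Same-numbered arrays shared their deviations from the group mean (r = 0.92 across genes, 0.83 over genes with unequal values). The labels state no pairing, so the block was kept as an alternative. The main fit therefore leaves this shared deviation in its SEs and p-values. With the block, which leaves 1 residual degree of freedom, the SE of Prim2 went from 0.19 to 0.004 and that of Fen1 from 0.21 to 0.27. A block takes out only a shift between replicates that both groups share. From replicate 1 to replicate 2, Prim2 changed by 0.27 on the mutant-labelled arrays and by 0.28 in wild type. Fen1 changed by 0.42 on the mutant-labelled arrays and by -0.21 in wild type.

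Leaving out an array, the replication genes had a median difference between -0.36 and -0.20 while the median over all genes lay between -0.16 and 0.15. The replication genes with groups apart then numbered 27 to 36, since fewer arrays overlap less. The share over all tested genes is not given, so this count is not read as a result. Quantile normalization again and median centring turn exact ties into small differences. Under each, 39 genes were lower in both replicates, a count that includes such former ties. Its share over all tested genes under these settings is not given, so the rise is not read as a result. By mean, 40 were lower and 2 higher, where 69.4% and 66.4% of all tested genes had a lower mean. With rows of several symbols included, 35 of 44 were lower in both replicates, and the share over all genes under this setting is not given. By mean, 41 of the 44 were lower and 2 higher, where 39.4% of all 19486 genes tested there had a lower mean. Signs turned for 8 genes, each only with an array left out: Cdc45 (-0.34 to 0.089), Gins3 (-0.078 to 0.032), Pold1 (-0.073 to 0.010), Rrm1 (-0.17 to 0.024), Dut (-0.13 to 0.026), Orc6 (-0.19 to 0.015), Pcna (-0.047 to 0.12) and Tyms (-0.10 to 0.059). Other filters, an intensity trend and a block on the deposited values leave each difference as it is, so they could not turn a sign.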

Other observations

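Further rows that carry the symbol of the same gene alone were dimmer than the rows used. A second row of Fen1, above the floor of 4.72, was equal between groups. It read 5.73 in replicate 1 and 5.94 in replicate 2, where the brighter row of Fen1 differed by -0.37. Second rows of Pole (4.85 and 4.96) and Rpa1 (4.68 and 4.93) were likewise equal between groups within each replicate, close to the floor of 4.72. Those of Dut and Rrm2 lay below that floor.

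Other promoter letters were also searched. The CCAAT box, searched as CCAAT on both strands, stood in 22 of the 37 genes with a promoter (59.5%), against 41.1% of all genes in the table. The CHR element of mitotic genes, searched as TTTGAA on both strands, stood in 5 (13.5%), against 20.2%. Replication genes with a CCAAT match had a median difference of -0.37 over 22 genes and those without -0.29 over 14. Lower in both replicates were 16 of the 22 (72.7%) and 11 of the 14 (78.6%), and neither difference was tested.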
